A study of Mus musculus with 6 samples.

Results

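The SLAM family of receptors was examined in DC2.4, an immature dendritic line from the mouse. The members were the 8 genes Slamf1, Slamf6, Slamf7, Slamf8, Slamf9, Cd48, Cd84 and Ly9, taken by symbol from the deposited count table. All 8 were found, each in a single row, among 54532 genes in the table. The family was picked because Slamf7 had a small p-value, with a lower level under the Vdbp label, when libraries labelled Vdbp were compared with libraries of empty vector. The direction and size of the Slamf7 difference in that comparison are therefore a description here: its p-values and intervals are given for size and precision, and none of them is read as a test.

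There were 3 libraries labelled Vdbp, from DC2.4 cells that per the labels received a pTT5 vector to overexpress Vdbp, the vitamin D-binding protein whose mouse gene is Gc. They were set against 3 libraries from DC2.4 cells given the empty pTT5 vector. Per the labels, all cells were grown in RPMI1640 with fetal bovine serum, passaged 48 h after transfection and then put under selection. The treatment protocol speaks of transfection, while the treatment label of the empty-vector libraries speaks of transduction, and the labels do not say whether the selected cells were a clone or a pool. Separate transfections for the replicates are not stated either, so any p-value measures only the spread between these samples. Messenger RNA was sequenced and counted per gene.

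SLAM receptors are cell surface proteins of the immunoglobulin superfamily. Most bind their own kind on a neighbouring cell, while Cd48 is a membrane-anchored ligand without a signalling tail of its own. The tails of Slamf1, Slamf6, Slamf7, Cd84 and Ly9 carry tyrosine switch motifs. These recruit the small adaptors of the SAP family, which activate Src family kinases, or else inhibitory phosphatases. Slamf8 and Slamf9 have short tails without such motifs. The family is best known from T cells, B cells and natural killer cells, and several members also act in phagocytes.

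Library totals lay between 15563800 and 16710975 counts, and 12844 genes passed the filter on low counts and were tested. Gc had 0 counts in all 3 libraries labelled Vdbp and in all 3 empty-vector libraries, so every direction below is that of the libraries so labelled. Whether vector transcripts would be counted as Gc is not known here. In a principal component analysis the leading axis took up 39.3% of the variance without parting the groups, with Vdbp replicate 1 and empty-vector replicate 2 farthest out. The log2 fold changes followed the GC content of genes with a Spearman's rho of 0.535 across genes, and of 0.02 once gene length and GC content were corrected for. The cell type label is bone marrow dendritic cells, and of 11 dendritic cell markers 3 reached a mean of 1 CPM (Itgax, Zbtb46 and Irf8), and the class II gene H2-Ab1 and its regulator Ciita did not. Of 10 macrophage and monocyte markers 8 did.

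All 8 genes lie on chromosome 1, and their order there is Ly9, Slamf7, Cd48, Slamf1, Cd84, Slamf6, Slamf9 and Slamf8. In the coordinates of the deposited table, which for all 8 equal those of GENCODE M21 on GRCm38, they span 171588624 to 172590568, a window of 1001.9 kb. Ly9, Slamf7 and Slamf8 are on the minus strand and the others on the plus strand. Slamf7 (ENSMUSG00000038179, 171632403 to 171653035) has 5 annotated transcripts with up to 8 exons. Ly9 (ENSMUSG00000004707, 171588624 to 171607410) overlaps Cd244a, another receptor of the family, on the opposite strand. Use of strand in the counting is not stated. Cd244a had 22, 25 and 18 counts in Vdbp replicates 1, 2 and 3, and 19, 16 and 18 in empty-vector replicates 1, 2 and 3. Without strand, reads counted for Cd244a could come from Ly9, which had 1376 to 1746 counts per library.

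The sequences before the start sites of Slamf7 and Cd48, neighbours in this order with detected and undetected transcripts, are shown for context. They are the 250 bases upstream of the RefSeq start on GRCm38.p6, 5′ to 3′ on the gene's own strand, with every GGAA on either strand in capitals. GGAA is the core bound by ETS factors, to which the myeloid factor PU.1 belongs.
Slamf7 upstream, chr1:171649000-171649249, minus strand: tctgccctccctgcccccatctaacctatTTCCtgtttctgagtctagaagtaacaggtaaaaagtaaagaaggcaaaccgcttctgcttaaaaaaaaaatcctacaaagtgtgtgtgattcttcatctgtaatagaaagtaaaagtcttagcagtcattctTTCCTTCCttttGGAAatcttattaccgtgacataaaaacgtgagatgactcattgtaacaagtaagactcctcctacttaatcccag
Cd48 upstream, chr1:171681742-171681991, plus strand: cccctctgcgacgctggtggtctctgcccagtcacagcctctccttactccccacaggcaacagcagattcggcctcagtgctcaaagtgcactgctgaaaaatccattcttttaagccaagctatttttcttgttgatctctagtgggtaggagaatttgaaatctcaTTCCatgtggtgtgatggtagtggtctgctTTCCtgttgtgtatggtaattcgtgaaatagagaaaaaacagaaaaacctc
The Slamf7 window held 4 such cores and the Cd48 window 2, and 93.5% of 32841 windows of this length in the table held at least 1. Of the 7 family genes with a window, 6 held the core. The longer PU.1-type element GAGGAA, which contains the core, was in neither printed window, in 1 of the 7 and in 23.3% of all windows, on either strand. These matches are descriptions of the letters only, and the annotated start in RefSeq lies inside the longer Slamf7 gene span of GENCODE.

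The family was expressed very unevenly, and Ly9 made up most of its messenger RNA. Levels are compared between genes as deposited FPKM, fragments scaled to gene length and library size. Ly9, a receptor that binds itself on T and B cells, stood at 25.7, 28.5 and 29.9 FPKM in Vdbp replicates 1, 2 and 3, and at 29.9, 31.5 and 28.2 FPKM in empty-vector replicates 1, 2 and 3. By mean FPKM it held rank 1865 of 22046 protein-coding genes.

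Slamf7, a self-binding receptor of natural killer cells, plasma cells and macrophages, was the next in level. Its levels were 1.83, 1.86 and 1.88 FPKM in the libraries labelled Vdbp and 3.18, 2.98 and 2.55 FPKM in the empty-vector libraries. Slamf7 held rank 8572 by mean FPKM, and Ly9 had on average 12.2 times its FPKM over the 6 libraries.

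Slamf9, a short-tailed member known from myeloid cells, followed with 0.846, 1.18 and 0.872 FPKM in the libraries labelled Vdbp and 0.982, 0.817 and 1.17 FPKM in the empty-vector libraries. Cd84, a self-binding receptor of platelets, B cells and myeloid cells, had 0.384, 0.295 and 0.548 FPKM with the Vdbp label and 0.421, 0.580 and 0.432 FPKM with empty vector. Slamf8, a short-tailed receptor that in mouse macrophages restrains the phagocyte oxidase, had 0.140, 0.0968 and 0.0620 FPKM with the Vdbp label and 0.160, 0.0581 and 0.0957 FPKM with empty vector. Among Ly9, Slamf7, Slamf9, Cd84 and Slamf8 the order was the same in all 6 libraries, and no gene's range over the libraries overlapped that of its neighbour.

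The remaining 3 genes were not detected above the counting floor. Cd48, the ligand of Cd244a and, in mouse, of Cd2, had 1 count in Vdbp replicate 1 and 0 in the other 5 libraries. Slamf1, a self-binding receptor and bacterial sensor of phagocytes, and Slamf6, a receptor of T, B and natural killer cells, had 0 counts in all 6 libraries. A count of 0 allows up to 3 counts, which is 0.149 to 0.160 FPKM for Cd48, 0.0287 to 0.0310 for Slamf1 and 0.0163 to 0.0176 for Slamf6, for counting error only. The floor of Cd48 covers the levels of Slamf8, so the order of Cd48 and Slamf8 is not settled at this depth, and Cd48, Slamf1 and Slamf6 have no order among themselves.

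**Figure D1:**
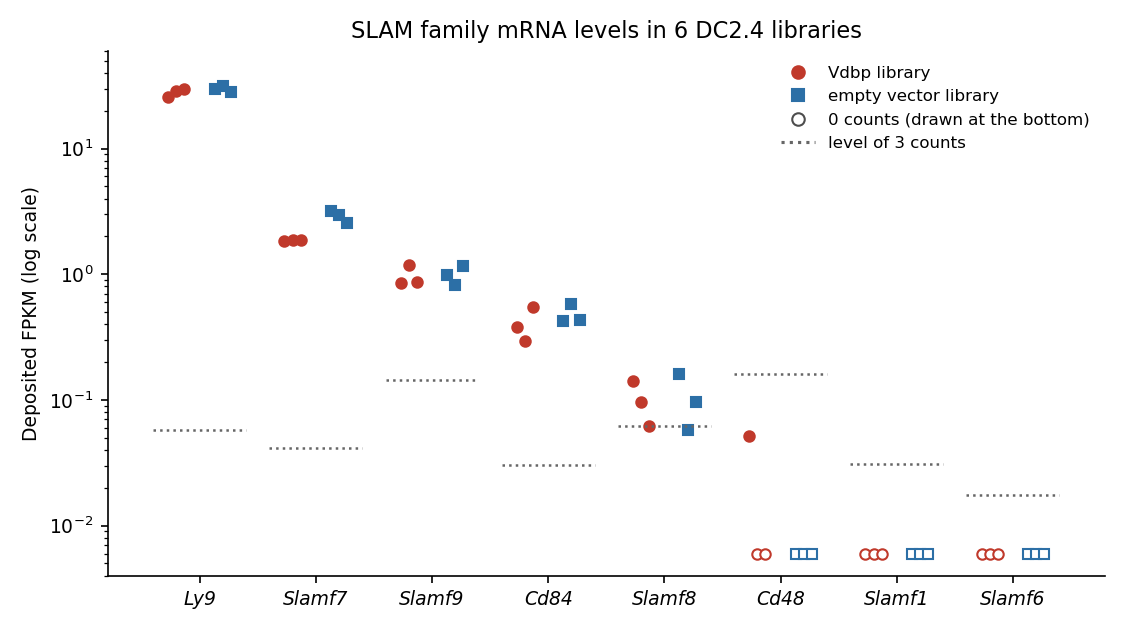
Deposited FPKM (log axis) of the 8 SLAM family genes in each of 3 libraries labelled Vdbp (circles) and 3 empty-vector libraries (squares), with open symbols for 0 counts and a dotted line at the level of 3 counts. Ly9 lies between 25.7 and 31.5 FPKM, Slamf7 is the next, and the points of the groups part without overlap only in Slamf7.

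As shares of all counts that fell on the 8 genes, Ly9 held 87.3%, 88.5% and 88.1% in Vdbp replicates 1, 2 and 3 and 83.9%, 84.9% and 85.2% in empty-vector replicates 1, 2 and 3. Slamf7 held 8.62%, 8.01% and 7.66% in the libraries labelled Vdbp and 12.3%, 11.1% and 10.7% in the empty-vector libraries. These shares are of counts and so also depend on gene length. They are tied to each other as well, since a lower Slamf7 count raises the share of Ly9. The level of Ly9 itself overlapped between the groups. The summed level of the family was 106 ± 7.28 CPM in the libraries labelled Vdbp and 117 ± 7.21 CPM in the empty-vector libraries (SD, n = 3 each), where CPM is the count scaled to library size with TMM factors.

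Between the groups Slamf7 showed the greatest difference of the family, and the levels of the other detected members overlapped. Of the 8 genes, 4 passed the filter on low counts: Slamf7, Ly9, Cd84 and Slamf9. In edgeR's quasi-likelihood test, adjusted by the Benjamini-Hochberg method, 0 of these 4 passed 0.05, against 0% of the 12844 genes tested. DESeq2 called 0 of the 4, against 0.0856% of all genes, and edgeR with the length and GC offset called 0, against 0.0156%. limma-voom also called 0 of the 4. At an unadjusted p under 0.05 there was 1, Slamf7, against 5.35% of all genes in either direction and 2.54% with a lower level under the Vdbp label. All 4 fold changes were below 0 on the log2 scale, against 51.3% of all genes, and 1 of the 4 had groups without overlap, against 10.9%. Since this comparison chose the family, nothing is read from these counts.

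Slamf7 had 136, 143 and 135 counts in Vdbp replicates 1, 2 and 3, and 237, 229 and 198 counts in empty-vector replicates 1, 2 and 3. In CPM these were 8.47, 8.55 and 8.62 with the Vdbp label against 14.6, 13.8 and 11.7 with empty vector. All 3 libraries labelled Vdbp lay below all 3 empty-vector libraries, and empty-vector replicate 3 was the nearest to them. Groups without overlap and with lower levels under the Vdbp label were seen in 5.61% of all tested genes. The means were 8.55 ± 0.08 CPM with the Vdbp label and 13.4 ± 1.48 CPM with empty vector (SD, n = 3 each).

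The log2 fold change of Slamf7 was −0.64 (SE 0.14, 95% interval −0.95 to −0.34), a level of 0.640 times that of the empty-vector libraries (0.517 to 0.791). A value this low or lower was found in 1.37% of tested genes, and the median over all tested genes was −0.01. The spread of Slamf7 among the libraries labelled Vdbp, a coefficient of variation of 0.931%, was below the 8.51% that counting error alone gives at this depth. That SD is therefore smaller than the error of the level. From the summed counts, 414 with the Vdbp label and 664 with empty vector, the ratio was 0.640 with an exact binomial 95% interval of 0.565 to 0.725, which covers counting error only. Fewer cells with Slamf7 transcripts and less Slamf7 RNA per cell cannot be told apart in bulk RNA.

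Without Vdbp replicate 1 and empty-vector replicate 2, which stood farthest out on the leading axis, the log2 fold change was −0.62. With gene length and GC content corrected for, Slamf7 was at 9.37, 8.60 and 8.48 CPM in Vdbp replicates 1, 2 and 3, against 14.3, 12.9 and 11.9 CPM in empty-vector replicates 1, 2 and 3. On this scale the groups did not overlap, and the log2 fold change was −0.57 (SE 0.12). Both values rest on the counts that chose the family and support nothing further.

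**Figure D2:**
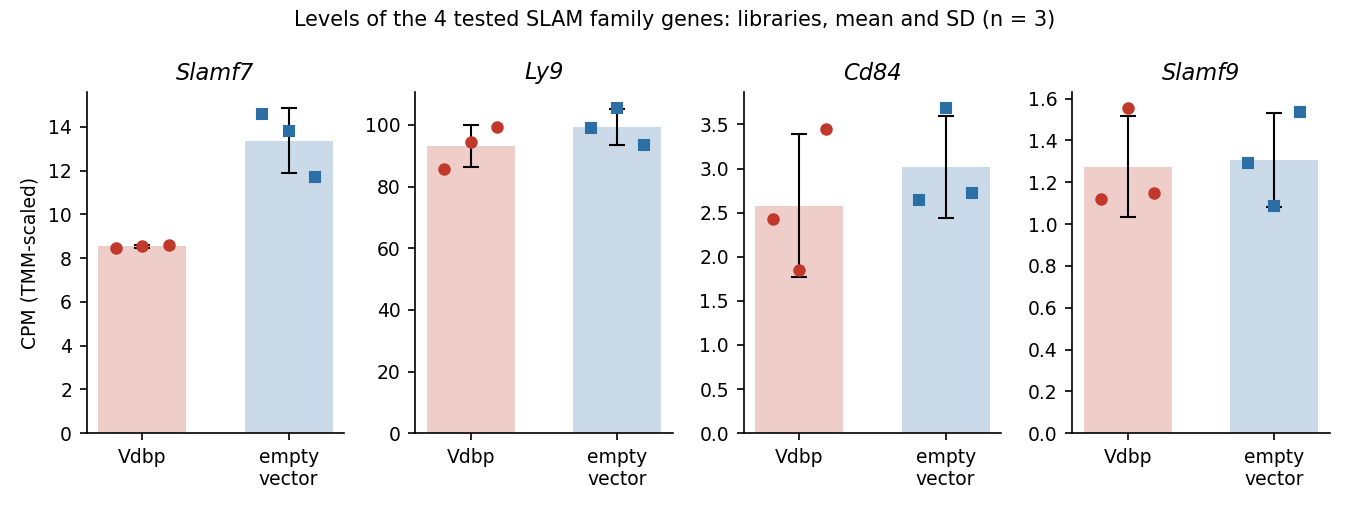
CPM of Slamf7, Ly9, Cd84 and Slamf9 in the libraries labelled Vdbp (left, circles) and with empty vector (right, squares), with bars at the mean and error bars of 1 SD (n = 3 each); each panel has its own axis from 0. Slamf7 is at 8.47 to 8.62 CPM with the Vdbp label and at 11.7 to 14.6 CPM with empty vector, while the groups overlap in the other 3 genes.

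Ly9 had 1376, 1581 and 1553 counts in the libraries labelled Vdbp, against 1613, 1746 and 1582 counts in the empty-vector libraries. In CPM it averaged 93.1 ± 6.88 with the Vdbp label and 99.4 ± 5.93 with empty vector (SD, n = 3 each). The lowest library was Vdbp replicate 1 at 85.7 CPM, and the groups overlapped. The log2 fold change was −0.09 (SE 0.10, 95% interval −0.30 to 0.12), so a change in Ly9 below 0.809-fold or above 1.08-fold lay outside the interval. Without Vdbp replicate 1 the log2 fold change was −0.03.

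Cd84 had 39, 31 and 54 counts with the Vdbp label and 43, 61 and 46 with empty vector. Its level was 2.58 ± 0.81 CPM with the Vdbp label and 3.02 ± 0.58 CPM with empty vector (SD, n = 3 each), and the groups overlapped, with Vdbp replicate 3 above 2 of the empty-vector libraries. The log2 fold change of −0.23 (95% interval −0.82 to 0.36) became −0.50 without Vdbp replicate 3, −0.04 without Vdbp replicate 2 and −0.09 after the length and GC correction. No direction can be read for Cd84 at this depth.

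Slamf9 had 18, 26 and 18 counts with the Vdbp label and 21, 18 and 26 with empty vector. Its log2 fold change of −0.03 had a 95% interval of −0.69 to 0.62, and the groups overlapped. Slamf8, with 7, 5 and 3 counts in the libraries labelled Vdbp and 8, 3 and 5 in the empty-vector libraries, was below the filter. Its ratio of summed counts was 0.962 with an exact binomial 95% interval of 0.443 to 2.08, so a difference of the size seen in Slamf7 was not detectable in Slamf8. The intervals of Slamf9 and Cd84 also included that size, and that of Ly9 did not.

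**Figure D3:**
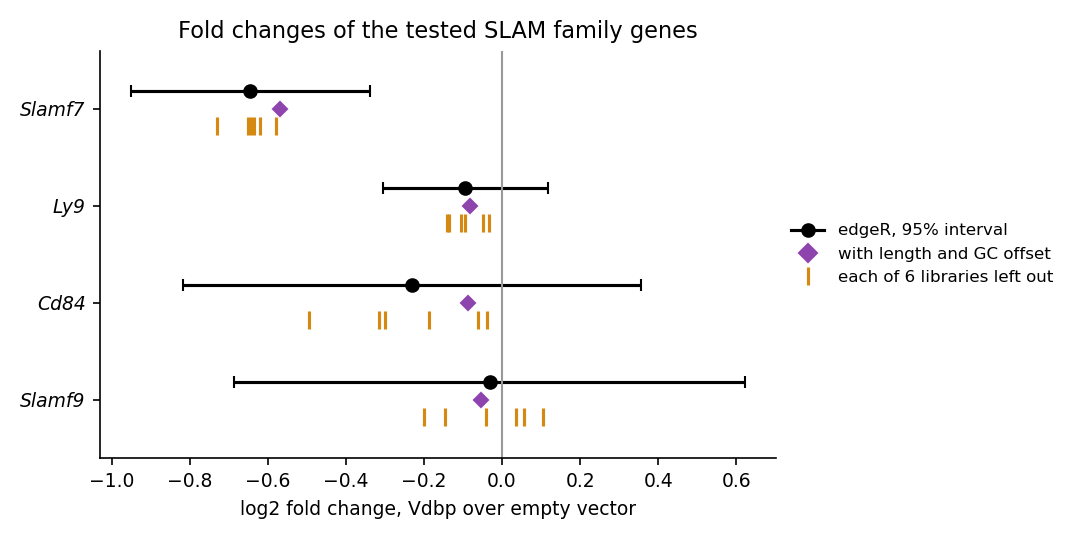
Log2 fold changes, Vdbp over empty vector, of the 4 tested SLAM family genes: edgeR estimate with its 95% interval (black), estimate with the length and GC offset (diamond) and the estimates with each of the 6 libraries left out (ticks). All Slamf7 estimates lie between −0.73 and −0.57, and the intervals of Ly9, Cd84 and Slamf9 cross 0.

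The ratio of Slamf7 to Ly9 within a library does not depend on how libraries are scaled, but it was not corrected for gene length and GC content. On the log2 scale that correction moved Slamf7 by −0.104 to 0.142 and Ly9 by −0.0229 to 0.0246 across the libraries. There were 9.88, 9.04 and 8.69 counts of Slamf7 per 100 counts of Ly9 in Vdbp replicates 1, 2 and 3, against 14.7, 13.1 and 12.5 in empty-vector replicates 1, 2 and 3. The means were 9.21 ± 0.61 with the Vdbp label and 13.4 ± 1.12 with empty vector (SD, n = 3 each), and the groups did not overlap. This ratio uses the same Slamf7 counts that led to the choice of the family and is a description, not separate evidence.

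The other genes of the chromosome 1 window gave no call. The window held 40 further genes, of which 15 were tested. edgeR called 0 of them at an adjusted p under 0.05, against 0% of all tested genes. At an unadjusted p under 0.05 there were 0, against 5.35% of all tested genes. DESeq2 called 0, against 0.0856%, and limma-voom 0, as it did over the whole table. For 15 genes these counts are near the background, and nothing about the window is read from them. Their median log2 fold change was 0.02, and the median was −0.01 after the length and GC correction. Of the 15, 11 were above and 4 below 0, where 51.3% of all tested genes were below 0. None was as low as Slamf7, against 1.37% of all tested genes as low or lower. Since Slamf7 was chosen by its low level, nothing is read from this. Tagln2, an actin-binding protein of the transgelin family, averaged 642 ± 98.1 CPM with the Vdbp label and 558 ± 49.2 CPM with empty vector (SD, n = 3 each). Copa, a subunit of the vesicle coat COPI, averaged 364 ± 26.5 CPM with the Vdbp label and 367 ± 21.6 CPM with empty vector. The lowest log2 fold change was that of the pseudogene Tma7-ps (−0.38) and the highest that of Cfap45 (0.72), which had 1.203 CPM with the Vdbp label and 0.727 CPM with empty vector. In 1 of the 15, Gm37125, which was named after its values were seen, all libraries labelled Vdbp lay above all empty-vector libraries, against 5.26% of all tested genes.

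**Figure D4:**
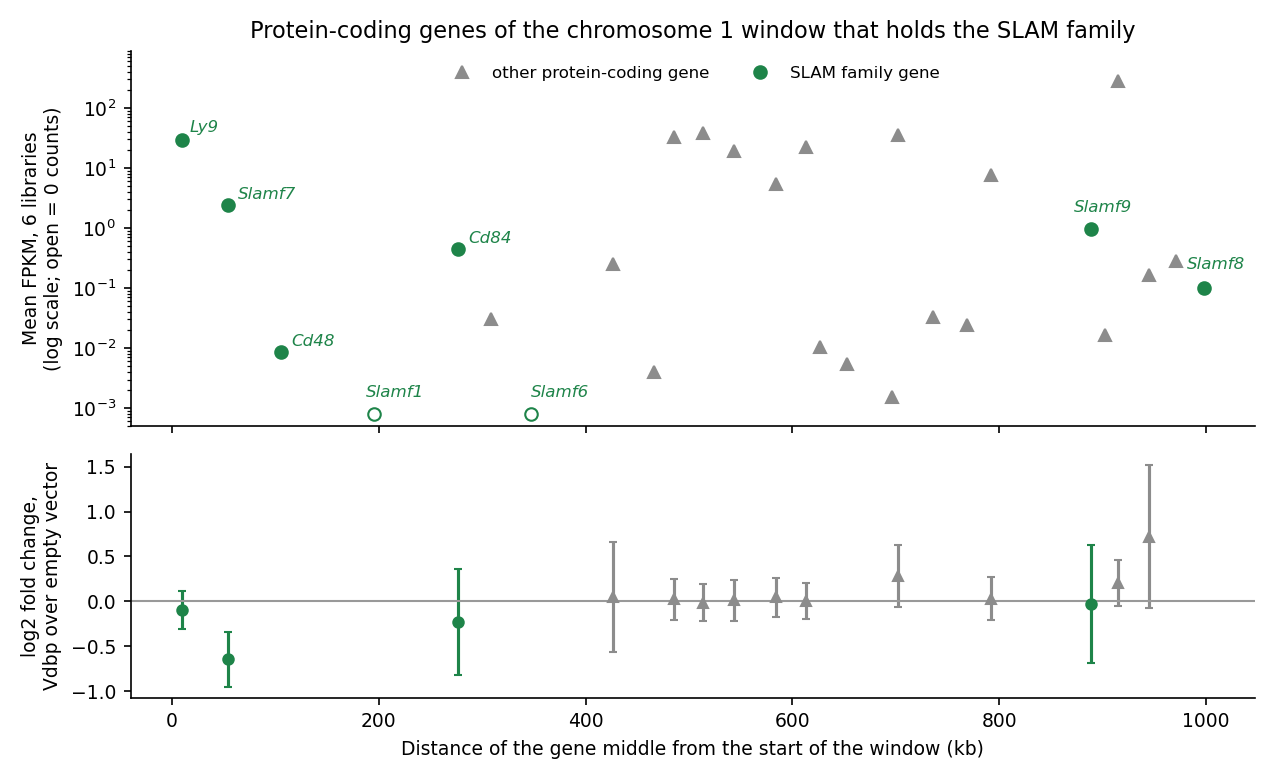
Top, mean FPKM over 6 libraries (log axis) of the 8 SLAM family genes (green circles) and the 19 other protein-coding genes (grey triangles) along the chromosome 1 window, with open circles for 0 counts; bottom, log2 fold change, Vdbp over empty vector, with 95% intervals for the tested ones. Ly9 and Slamf7 sit at the left end with the highest SLAM levels. Slamf7, whose low level led to the choice of the family, has the lowest fold change of the tested genes in the window.

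The machinery that SLAM receptors signal through was partly present. Of 44 genes listed for it, 40 had counts and 38 were tested. All 3 SAP family adaptors, Sh2d1a, Sh2d1b1 and Sh2d1b2, had 0 counts in all 6 libraries, as did Cd2. By FPKM the leading genes were Src among the kinases (64.0), Ptpn6 among the phosphatases (144), Plcg2 among the downstream effectors (64.3), the oxidase subunit Cyba among the phagosome partners (605) and Fcer1g among the phagocytosis partners (405), as means over 6 libraries.

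No gene of the signalling list passed between the groups. edgeR called 0 of 38 at an adjusted p under 0.05, against 0% of all tested genes, and DESeq2 called 0, against 0.0856%. limma-voom also called 0 of 38. An unadjusted p under 0.05 in edgeR was seen in 1 of 38, Cybb, against 5.35% of all tested genes. Groups did not overlap in 3 of 38, against 10.9% of all tested genes: Fyn was higher with the Vdbp label, against 5.26%, and Cybb and Itgam were lower, against 5.61%. These shares are near the background. The median log2 fold change was 0.03, against −0.01 over all tested genes, and it was −0.02 after the length and GC correction. Of the 38, 20 were above and 18 below 0, where 51.3% of all tested genes were below 0. By group, the median was 0.09 over 7 tested kinases, 0.01 over 4 phosphatases, 0.04 over 10 downstream effectors, 0.01 over 10 phagosome partners and −0.08 over 6 phagocytosis partners, of which 5 were below 0. Cd244a, the receptor for Cd48, averaged 1.34 ± 0.17 CPM with the Vdbp label and 1.07 ± 0.10 CPM with empty vector (SD, n = 3 each), with a log2 fold change of 0.33 (SE 0.29). In Fyn, the kinase that the adaptor Sh2d1a recruits, all libraries labelled Vdbp lay above all empty-vector libraries, with means of 45.2 ± 0.94 CPM with the Vdbp label and 42.8 ± 1.74 CPM with empty vector (SD, n = 3 each). Fyn was named after its values were seen.

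Among the phagocyte partners the smallest p-values were those of Cybb and Itgam. Cybb, the catalytic subunit of the phagocyte oxidase, had 301, 375 and 382 CPM in Vdbp replicates 1, 2 and 3, against 401, 463 and 415 CPM in empty-vector replicates 1, 2 and 3. The groups did not overlap, and its log2 fold change was −0.27 (SE 0.11), with an adjusted p of 0.781 in edgeR and a value of −0.15 after the length and GC correction. Itgam, the alpha chain of the integrin Mac-1 with which Slamf7 acts in macrophage phagocytosis, had 61.8, 60.2 and 63.1 CPM with the Vdbp label, against 70.2, 77.2 and 65.7 CPM with empty vector. Here too the groups did not overlap, with a log2 fold change of −0.20 (SE 0.10) and an adjusted p of 0.781 in edgeR. Lower levels without overlap were seen in 5.61% of all tested genes, which is near the 2 of 38 in this list.

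The 5 genes whose pattern over the 6 libraries was most like that of Slamf7 were Clec4n, Zcwpw1, Arg1, Cacna1d and Cd274. Likeness was the root mean square difference in log2 CPM after each gene was centred on its own mean, over 9363 protein-coding genes with a mean of 5 CPM or more, leaving out those with provisional names. It was 0.0753 for Clec4n, 0.0784 for Zcwpw1, 0.0834 for Arg1, 0.0871 for Cacna1d and 0.104 for Cd274, where the median over all these genes was 0.349. Clec4n encodes the fungal pattern receptor dectin-2, Arg1 is arginase 1, Cacna1d a pore subunit of voltage-gated calcium channels, and Cd274 the inhibitory ligand PD-L1.

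Clec4n had 5.04, 4.90 and 4.54 CPM with the Vdbp label and 7.56, 7.61 and 6.09 CPM with empty vector. Zcwpw1, a reader of histone methylation, had 9.09, 9.92 and 9.65 CPM with the Vdbp label and 15.1, 15.1 and 11.5 CPM with empty vector. As in Slamf7, empty-vector replicate 3 was the lowest of its group in both. Arg1 had 11.2, 10.6 and 11.3 CPM with the Vdbp label and 20.2, 19.8 and 17.2 CPM with empty vector.

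Cd274 had 58.8, 68.2 and 70.9 CPM with the Vdbp label and 99.5, 107 and 93.7 CPM with empty vector, and did not overlap between the groups. Cacna1d had 9.46, 8.55 and 9.52 CPM with the Vdbp label and 15.7, 14.5 and 14.3 CPM with empty vector. In edgeR the adjusted p was 0.601 for Arg1 and Cd274, 0.656 for Cacna1d and 0.781 for Clec4n and Zcwpw1. In DESeq2 it was 0.00438 for Arg1 and Cd274, 0.0476 for Cacna1d, 0.924 for Clec4n and 0.691 for Zcwpw1. With the length and GC offset in edgeR it was 0.0315 for Arg1, 0.00619 for Cd274, 0.143 for Cacna1d, 0.447 for Clec4n and 0.416 for Zcwpw1. All 5 genes were picked by their likeness to a gene without overlap, which fixes their direction and favours small p-values. Their adjusted p-values are therefore no support for a link with Slamf7. Within the family the same measure was 0.285 for Ly9, 0.356 for Cd84 and 0.401 for Slamf9.

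**Figure D5:**
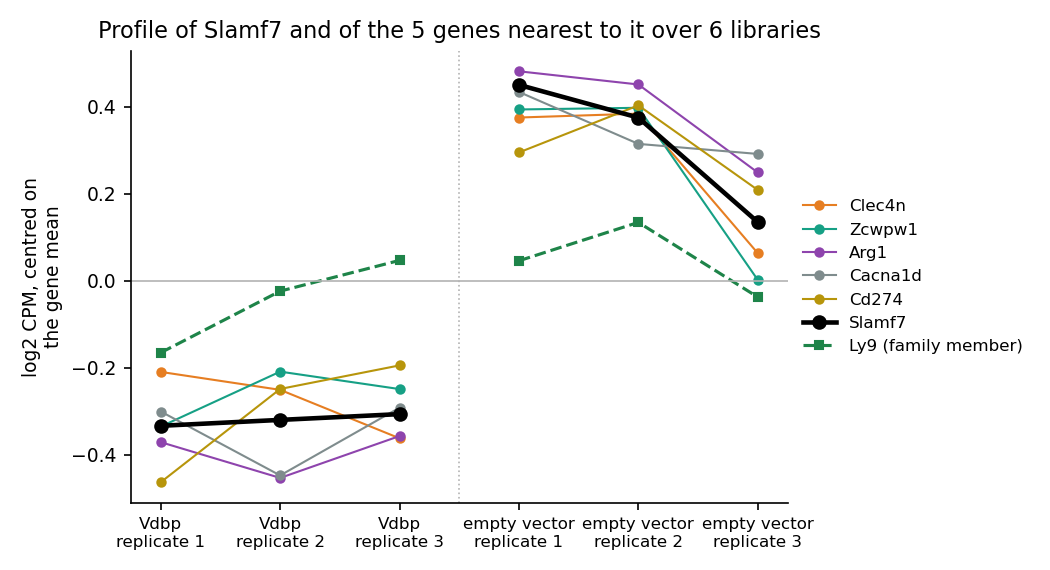
Log2 CPM of Slamf7 (black), of the 5 genes nearest to it and of Ly9 (dashed), each centred on its own mean, in the 3 libraries labelled Vdbp and the 3 empty-vector libraries; lines join libraries of a group only to guide the eye. Slamf7 and its nearest genes lie below 0 in all libraries labelled Vdbp, while Ly9 crosses 0 within each group.

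Markers of cells that carry SLAM receptors in the body were set beside these levels. The 6 natural killer cell markers summed to at most 0.124 CPM in any library labelled Vdbp and 0.123 CPM in any empty-vector library, with Ncr1, Klrb1c, Nkg7 and Gzma at 0. Of 8 T cell markers, Cd3e, Cd3g and Cd8b1 were at 0 and only Lck and Cd5 reached 1 CPM. The T cell list summed to 48.5 to 59.0 CPM with the Vdbp label and 44.0 to 45.5 CPM with empty vector.

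The macrophage and monocyte list summed to 4890 to 5310 CPM with the Vdbp label and 5150 to 5870 CPM with empty vector, so the ranges overlapped. The dendritic cell list summed to 103 to 118 CPM with the Vdbp label and 108 to 118 CPM with empty vector, with Cd209a at 0. Of 4 plasma cell markers Sdc1 and Xbp1 reached 1 CPM, and the sums were 270 to 301 CPM with the Vdbp label and 255 to 276 CPM with empty vector. The platelet list, nearly all Pf4, summed to 604 to 657 CPM with the Vdbp label and 667 to 709 CPM with empty vector, with Gp1bb at 0. No mast cell and basophil marker reached 1 CPM, with sums of at most 0.120 CPM in the libraries labelled Vdbp and 0 in the empty-vector libraries. The T cell sums, nearly all Cd5 and Lck, were higher and the platelet sums lower with the Vdbp label, without overlap. Of all tested genes, 5.26% were higher and 5.61% lower with the Vdbp label without overlap. In edgeR the adjusted p was 0.781 for Cd5 and for Pf4 and 0.784 for Lck, whose groups overlapped. No shift in T cell or platelet genes is read from these sums. Lyz2 and Adgre1, of the macrophage list, averaged 1583 ± 57.3 and 583 ± 28.8 CPM with the Vdbp label and 1964 ± 199 and 672 ± 16 CPM with empty vector (SD, n = 3 each). Both genes were named after their values were seen, and the part of these differences in the Slamf7 result was not tested.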

How the data were processed

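Per the labels, libraries were made from messenger RNA of DC2.4 cells, with total RNA extracted by TRIzol. The tools in the submitters' processing notes are HISAT2 and StringTie; for the counting tool, the build and the annotation release, nothing is stated there. The authors deposited a table of unnormalised counts per Ensembl gene and a table of FPKM values for the same genes. FPKM equalled the count divided by gene length and by 1 constant per library, to a relative gap of 5.1e-15. The counts were used for comparisons between groups and FPKM for levels between genes. GENCODE M21 (GRCm38) held 99.9% of the Ensembl identifiers, 98.3% of them at equal coordinates. Upstream sequences are from RefSeq on GRCm38.p6, which gave a window for 7 of the 8 members.

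Counts were fitted in R 4.3.3 with edgeR 4.0.16: filterByExpr (minimum count 10, minimum total 15, minimum proportion 0.7), TMM scaling, and a quasi-likelihood test with group as the only term. Two-sided p-values were adjusted over 12844 genes (Benjamini-Hochberg). The correction for gene length and GC content was a smooth trend per library, fitted with mgcv 1.9.3 and used as an offset. DESeq2 1.42.0, limma 3.58.1 and other settings were alternatives. The fits were checked on simulated counts.

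Members and lists were chosen with earlier results of these data known. Named genes were all members and, in the signalling list, the gene with the highest mean FPKM of each sublist, any past the threshold and the 2 with the smallest p. In the window they were the 2 highest by CPM and the lowest and highest fold change. The 5 genes most like Slamf7 completed the rule. Outside it, Fyn, Gm37125 and, of the marker lists, Cd5, Lck, Pf4, Lyz2 and Adgre1 were named after their values were seen. Of 45 symbols in the signalling list, Cd244 is an older symbol of Cd244a, which leaves 44 genes. The B cell marker list is not reported here.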

Additional observations from a re-analysis of the deposited data

How the results depend on the processing

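Over 20 alternatives the log2 fold change of Slamf7 stayed below 0, between −0.73 and −0.45. Slamf7 was chosen by its low level and its groups did not overlap, so nothing is read from this steady sign. The value nearest to 0, −0.45, came from limma on log2(FPKM + 1), where the pseudocount is large beside the level of Slamf7. Leaving out each library in turn gave −0.73 to −0.58. The adjusted p of Slamf7 ranged from 0.0388 to 1.00, and was under 0.05 only in the edgeR fit with no filter on low counts; nothing is read from it, since this comparison chose the family. The log2 fold change of Cd84 stayed below 0 in the 19 alternatives that kept it, that of Ly9 was above 0 in 1 alternative (0.00404, without empty-vector replicate 2 and Vdbp replicate 1), and that of Slamf9 was above 0 in 3. The counts called in the signalling list and in the chromosome 1 window were 0 under all alternatives.

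The count of genes called over the whole table was 0 in the edgeR fit and in limma-voom, 11 in DESeq2, 89 with no filter on low counts, 2 with the length and GC offset and 2 without empty-vector replicate 2 and Vdbp replicate 1. Leaving out each library in turn gave 0 to 22, with 22 without empty-vector replicate 3 and 1 without empty-vector replicate 2. The cause of these shifts was not tested. At an unadjusted p under 0.05 edgeR had 687 genes, 1190 with the offset, 1375 with no filter, and 258 (without empty-vector replicate 2) to 1532 (without Vdbp replicate 3) with each library left out in turn, so the share of 5.35% moves with these choices. Same-numbered libraries had correlations of their deviations from the group means of 0.13, 0.02 and −0.24. Libraries with unlike numbers had −0.31 to 0.32. With 3 libraries per group, each centred on the group mean, these values cannot settle whether the numbers paired the samples. With the replicate number as a block edgeR called 0 genes and the log2 fold change of Slamf7 was −0.64. With the block and the offset together it called 0, and the Slamf7 value was −0.57. Slamf8 had 3 to 8 and Slamf9 18 to 26 counts per library, which limits what could be detected in them.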
